A study of Mus musculus with 10 samples.

Results

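Genes of cholesterol and fatty acid synthesis were followed in mouse Flk1+ cells that lacked or carried Ldb1. The set was a list of 28 symbols, matched to the rows of the count table by gene identifier. A row was found for 27 of them among 21868 genes, and all 27 passed the filter on low counts with 124 to 19947 reads per sample. Hmgcs1 was listed but not analysed here. The 27 genes comprised 6 of the mevalonate branch, 11 of the squalene and sterol branch, 6 of sterol sensing and transport, and 4 of fatty acid synthesis.

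Ldb1 is an adaptor protein that links LIM-domain and other transcription factors, and Flk1, encoded by Kdr, marks the mesoderm that gives rise to blood and endothelium. RNA was sequenced from Flk1+ cells of embryoid bodies, which are aggregates of differentiating embryonic stem (ES) cells. The KO cells came from Ldb1-/- ES cells and the WT cells from Ldb1+/+ ES cells, with no other treatment that differed between them in the labels. The day of the embryoid bodies used for RNA was not given in the sources used here. Each genotype was represented by its own ES cells, so the loss of Ldb1 and any other difference between those cells cannot be told apart.

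Each genotype had 4 libraries, but libraries 1 and 2, and likewise 3 and 4, differed within a genotype by little more than sampling noise. They were summed to 2 samples per genotype, A and B, with 22674679 and 26775787 reads in KO and 23182551 and 26221496 reads in WT. Whether the A and B samples are separate cultures is not in the labels, and the p-values then reflect only the spread between these samples, which may be technical. Kdr, the gene of the sorted marker, was present in all 4 samples, at 236 and 78.6 read counts per 1000000 (CPM) in KO A and KO B and at 440 and 605 CPM in WT A and WT B. The Ldb1 row had 96.1 and 80.1 CPM in KO and 105 and 113 CPM in WT, and a count over the whole gene does not check a deletion of part of it. All levels are CPM after TMM normalisation, and all fold changes are log2 of KO over WT.

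Cells make cholesterol from acetyl-CoA through mevalonate, isoprenoid diphosphates, squalene and a chain of sterol intermediates, while fatty acid synthesis draws on the same acetyl-CoA. Both routes are driven by the SREBP transcription factors, which are made as membrane proteins of the endoplasmic reticulum. When sterols are scarce, the escort protein Scap carries them to the Golgi for cleavage, and Insig proteins hold Scap back when sterols are plentiful.

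Most of the 27 genes stood lower in KO than in WT cells, by small amounts. The log2 fold change was below 0 for 21 genes and above 0 for 6, with a median of -0.15, against -0.01 over all 16785 genes tested. No member passed the edgeR quasi-likelihood test at an adjusted p of 0.05, a test that called 0.185% of all genes. At an unadjusted edgeR p under 0.05, 6 members were lower, a share of 22.2% where 7.86% of all genes were lower. On the higher side the same criterion took 1 member, or 3.70%, where it took 7.61% of all genes. The member median was -0.12 with KO B left out and -0.25 with KO A left out. It was -0.20 without WT A and -0.13 without WT B. DESeq2 called 2 members lower, Srebf1 and Fasn, and 0 higher, against 3.53% of all genes lower and 3.37% higher. Both KO samples lay below both WT samples for 13 members, or 48.1%, where 22.4% of all genes did so. Both KO samples lay above both WT samples for 5 members, or 18.5%, below the 23.2% of all genes. In the other 9 the groups overlapped.

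**Figure D1:**
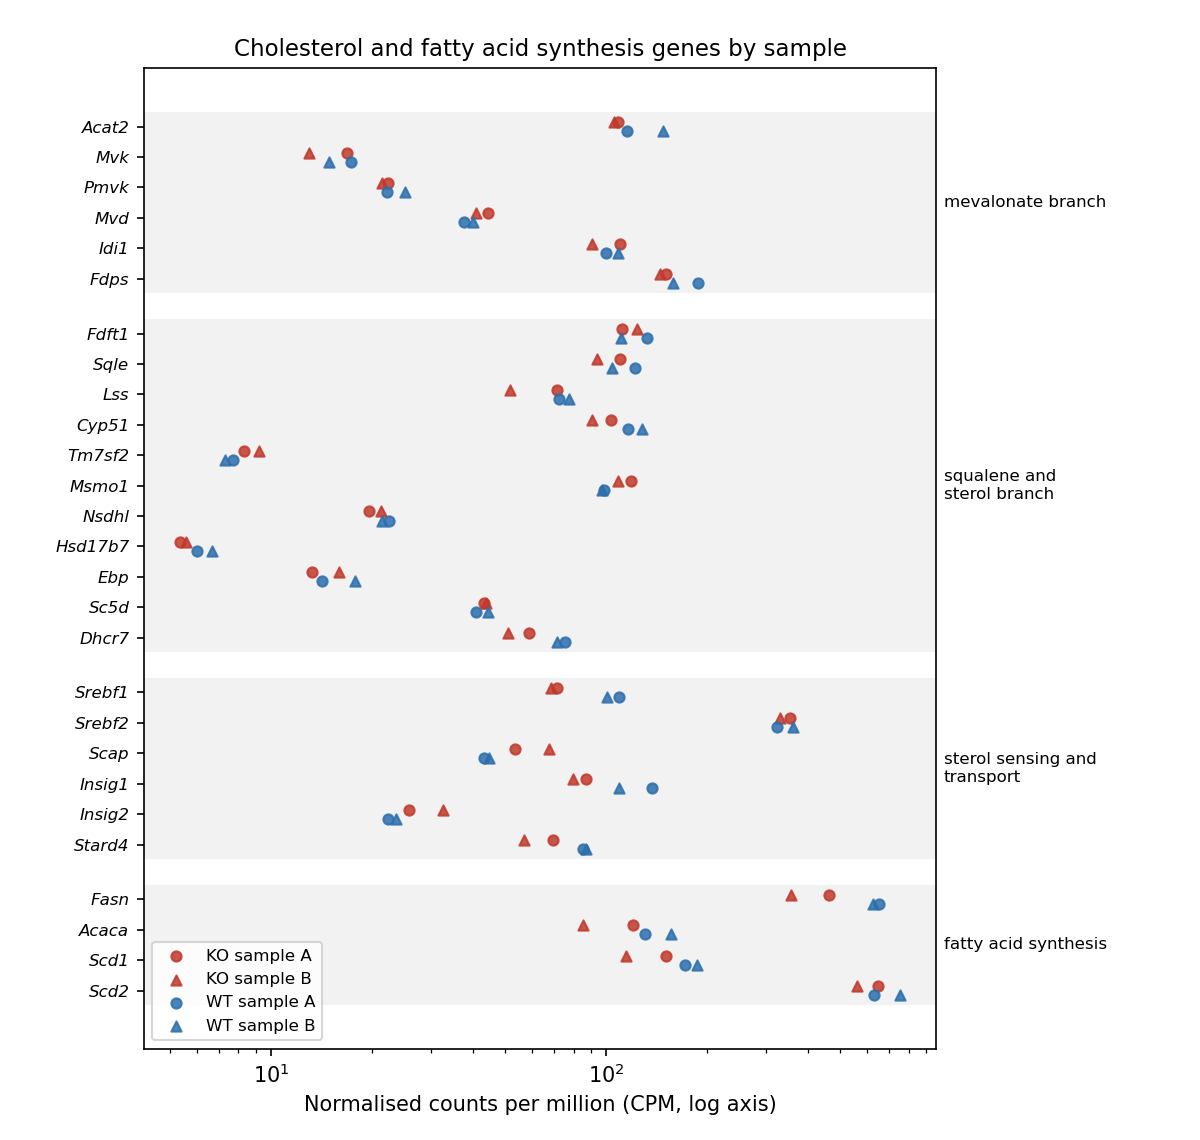
Normalised CPM (log axis) of the 27 genes in each KO and WT sample, grouped by role, with 1 point per sample. The red KO points lie left of both blue WT points for 13 genes, among them Fasn, Srebf1 and Insig1, and right of both for 5, among them Scap and Insig2.

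Chromosome of origin was recorded beside these counts because 2 chromosomes were shifted as a whole. Among expressed genes the median log2 fold change was -0.47 over 904 genes of chromosome 11 and 0.25 over 602 genes of chromosome 8. The medians of the other chromosomes lay between -0.0016 and 0.05. Chromosome 11 carries 3 members, Srebf1, Fasn and Acaca, and chromosome 8 carries 2, Mvd and Msmo1. Among the 22 members on other chromosomes the median was -0.14. At an unadjusted edgeR p under 0.05, 4 of these 22 were lower (Insig1, Stard4, Dhcr7 and Scd1) and 1 was higher (Scap). Of all genes outside chromosomes 8 and 11, 5.07% were lower and 7.32% higher by the same criterion. DESeq2 called none of the 22, with adjusted p-values from 0.0542 upward, and edgeR called 0 of them. Of all 14705 genes outside the 2 chromosomes, DESeq2 called 280 lower, or 1.9%, and 480 higher. The 14705, also the base of the 5.07% and 7.32%, include any gene with no chromosome assigned. Of the 21868 genes in the count table, 19332 had one. By edgeR 15 of the 14705 were lower and 10 higher.

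**Figure D2:**
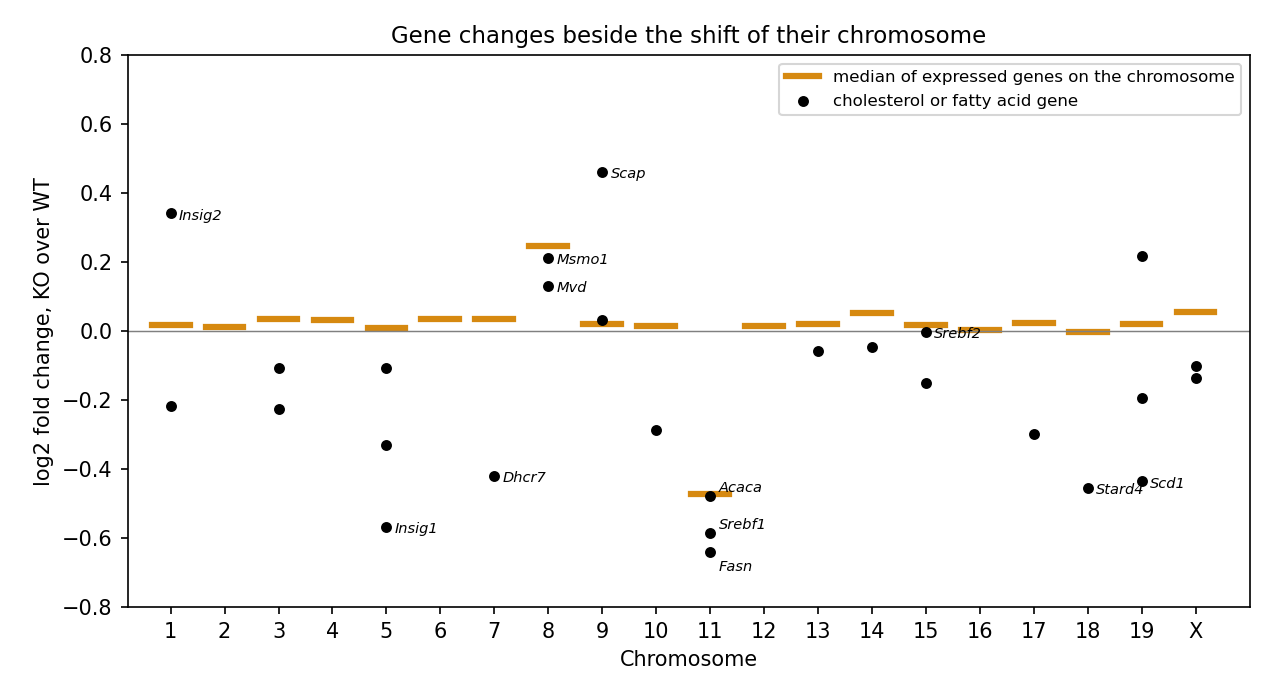
Log2 fold change of KO over WT for each of the 27 genes (black points) by chromosome, with the median of the expressed genes of that chromosome (orange bar). The chromosome 11 bar lies at -0.47 with Fasn, Srebf1 and Acaca at or below it, and the chromosome 8 bar lies at 0.25 with Mvd and Msmo1 below it.

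The promoter sequences of the genes at either end of the range are shown because their transcripts differed most and in opposite directions. Fasn, Srebf1 and Insig1 had the 3 lowest log2 fold changes, and Scap and Insig2 the 2 highest. Fasn and Srebf1 lie on the shifted chromosome 11. With chromosome medians removed they were at -0.17 and -0.11, no longer among the lowest, while Insig1 was at -0.57. Each sequence is the RefSeq window of 250 bases before to 50 bases after the annotated start, build GRCm38.p6, printed 5′ to 3′ on the gene's strand. Where a gene had several windows, the first in the table is shown. Capitals mark CCAAT on either strand, so also ATTGG, and the E-box CACGTG. The Insig1 window is chr5:28071162-28071461 on the plus strand, and Fasn is chr11:120824498-120824797 on the minus strand. The Srebf1 window, 1 of 3, is chr11:60222532-60222831 on the minus strand. The Insig2 window, 1 of 3, is chr1:121332540-121332839 on the minus strand, and the Scap window, 1 of 2, is chr9:110333038-110333337 on the plus strand.
Insig1: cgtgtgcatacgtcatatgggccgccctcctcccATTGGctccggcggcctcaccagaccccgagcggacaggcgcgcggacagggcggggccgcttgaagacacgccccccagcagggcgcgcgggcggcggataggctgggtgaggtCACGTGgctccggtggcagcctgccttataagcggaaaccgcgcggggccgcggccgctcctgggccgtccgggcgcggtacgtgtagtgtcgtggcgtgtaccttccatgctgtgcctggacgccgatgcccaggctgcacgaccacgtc
Fasn: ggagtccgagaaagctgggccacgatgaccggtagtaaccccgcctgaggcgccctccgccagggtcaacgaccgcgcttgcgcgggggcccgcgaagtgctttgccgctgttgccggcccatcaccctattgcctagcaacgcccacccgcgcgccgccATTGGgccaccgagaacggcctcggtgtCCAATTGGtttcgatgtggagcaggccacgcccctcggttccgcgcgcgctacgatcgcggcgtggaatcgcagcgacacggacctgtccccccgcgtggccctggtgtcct
Srebf1: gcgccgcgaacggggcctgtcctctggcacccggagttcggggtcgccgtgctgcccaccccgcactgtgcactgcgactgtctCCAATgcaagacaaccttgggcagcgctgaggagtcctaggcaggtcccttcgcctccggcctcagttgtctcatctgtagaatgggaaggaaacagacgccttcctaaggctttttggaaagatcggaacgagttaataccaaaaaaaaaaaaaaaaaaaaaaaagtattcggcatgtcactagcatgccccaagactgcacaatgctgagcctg
Insig2: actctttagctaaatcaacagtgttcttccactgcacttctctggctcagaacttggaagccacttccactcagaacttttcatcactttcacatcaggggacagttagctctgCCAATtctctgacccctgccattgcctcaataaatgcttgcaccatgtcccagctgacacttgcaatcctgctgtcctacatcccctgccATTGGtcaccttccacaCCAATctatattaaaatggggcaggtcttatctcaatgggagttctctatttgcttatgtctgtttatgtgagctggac
Scap: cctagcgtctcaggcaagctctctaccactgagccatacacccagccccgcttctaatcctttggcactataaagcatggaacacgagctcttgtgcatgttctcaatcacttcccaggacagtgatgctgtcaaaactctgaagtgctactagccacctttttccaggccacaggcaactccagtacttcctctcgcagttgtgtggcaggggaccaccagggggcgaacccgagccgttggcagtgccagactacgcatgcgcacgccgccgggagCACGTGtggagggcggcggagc

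The Insig1 window held 1 CCAAT and 1 CACGTG, and the Fasn window held 3 CCAAT copies, a pair of which share 2 bases. The Srebf1 window held 1 CCAAT, the Insig2 window 3, and the Scap window none but 1 CACGTG. No CCAAT copy shared a base with a CACGTG in these windows. CCAAT is the letter pattern bound by NF-Y, a factor known to act with SREBPs on sterol genes.

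RefSeq windows were at hand for 21 of the 27 genes, 29 windows in all, and 6 motifs were searched on both strands. CCAAT was present in 19 of the 29 windows, or 65.5%, against 37.4% of all 32851 windows in the table and 37.6% of the windows of tested genes. By gene, 18 of 21 members had it in at least 1 window (all but Acaca, Acat2 and Scap), or 85.7%, against 42.8% of 11980 tested genes. The GC box GGGCGG was in 22 of the 29 windows, or 75.9%, against 35.7% of all windows and 58.3% of the windows of tested genes. CACGTG was in 6 windows, or 20.7%, of Dhcr7, Hsd17b7, Insig1, Sc5d and Scap, against 7.15% of all windows and 9.33% of the windows of tested genes. The sterol regulatory element core TCACNCCAC was in 0 of 29 windows, against 1.24% of all windows, and a longer variant of 10 letters was also in 0, against 0.0913%. The related TCACNCNAC was in 1 window, that of Nsdhl, against 2.70% of all windows. Genes with fold changes below and above 0 both carried CCAAT, and the absence of a match says only that these letters are not in that window.

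The 6 genes that sense sterols and control the pathway had the widest range of log2 fold changes of the 4 role groups, from -0.59 to 0.46. Srebf1, which encodes the SREBP that chiefly drives fatty acid synthesis, had 71.4 and 68.6 CPM in KO A and KO B, against 109 and 101 CPM in WT A and WT B. Both KO samples were lower than both WT samples. Its log2 fold change was -0.59 (SE 0.13), with an edgeR adjusted p of 0.127 and a DESeq2 adjusted p of 0.00703. With the chromosome 11 median removed the value was -0.11. Srebf2, which encodes the SREBP that chiefly drives cholesterol synthesis, had 353 and 331 CPM in KO and 323 and 362 CPM in WT. Its groups overlapped, and its log2 fold change was -0.0015 (SE 0.13, edgeR adjusted p = 0.997).

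Insig1 encodes a protein that retains Scap in the endoplasmic reticulum and is itself a well-known SREBP target. It had 86.9 and 79.7 CPM in KO, against 137 and 109 CPM in WT. The groups did not overlap, although WT A stood well above WT B. The log2 fold change was -0.57 (SE 0.16), which missed the threshold by edgeR (adjusted p = 0.185) and by DESeq2 (adjusted p = 0.0542). Stard4, a sterol carrier protein and another known SREBP target, had 69.3 and 56.8 CPM in KO, against 85.5 and 87.3 CPM in WT. The KO values were again the lower ones, with a log2 fold change of -0.45 (SE 0.15, edgeR adjusted p = 0.232). With WT B left out, the log2 fold change was -0.72 for Insig1 and -0.64 for Srebf1. With WT A left out the values were -0.40 for Insig1 and -0.53 for Srebf1.

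Scap and Insig2 lay on the other side. Scap had 53.4 and 67.7 CPM in KO, against 43.3 and 44.7 CPM in WT. Both KO samples were higher, KO B more so, and the log2 fold change was 0.46 (SE 0.16, edgeR adjusted p = 0.262). Insig2, the second Insig protein, had 25.8 and 32.6 CPM in KO, against 22.4 and 23.7 CPM in WT. Its groups did not overlap either, with a log2 fold change of 0.34 (SE 0.18, edgeR adjusted p = 0.452). With KO B left out the values were 0.28 for Scap and 0.16 for Insig2.

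Ratios within a sample set these related genes against each other per transcript length. The level of Insig1 per kilobase was 3.07 and 2.23 times that of Insig2 in KO A and KO B, against 5.60 and 4.21 times in WT A and WT B. Insig1 was thus the more abundant of the pair in all 4 samples, and by less in both KO samples. The difference of the log2 ratio, KO minus WT, was -0.89. The log2 ratio of Srebf1 over Srebf2 was -2.09 and -2.06 in KO, against -1.35 and -1.63 in WT, a difference of -0.59 that was -0.10 with chromosome medians removed. Scd1 over Scd2 had log2 ratios of -1.88 and -2.07 in KO, against -1.65 and -1.79 in WT, a difference of -0.26. As a difference of fitted fold changes this was -0.24, and -0.16 with KO B left out. In all 3 pairs both KO samples lay below both WT samples. The exact two-sided permutation p was 0.33 for each pair and 0.33 after adjustment over the 3, the smallest value that 2 against 2 samples can give.

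**Figure D3:**
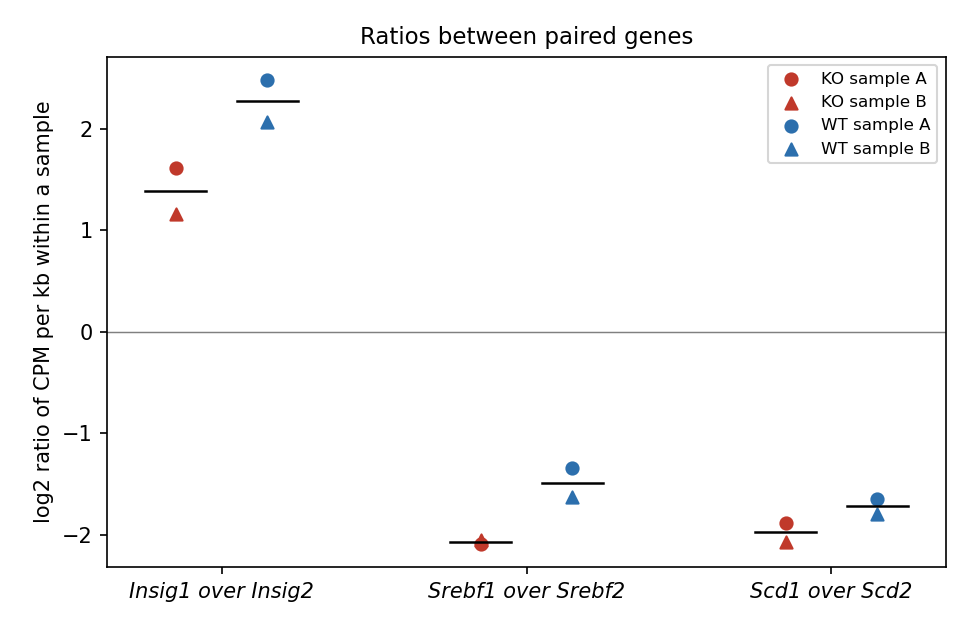
Log2 ratio of CPM per kilobase between paired genes within each sample, with 1 point per sample and a bar at the mean of each genotype. The Insig1 over Insig2 ratio averages 1.39 in KO and 2.28 in WT, the widest gap of the 3 pairs.

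The 4 fatty acid genes had a median log2 fold change of -0.46, and all 4 values were below 0. Fasn and Acaca lie on chromosome 11, and with chromosome medians removed the median was -0.19. Fasn, the fatty acid synthase, had 462 and 357 CPM in KO, against 651 and 626 CPM in WT. Both KO samples were lower, and the KO mean was 35.9% below the WT mean. The log2 fold change was -0.64 (SE 0.16), with an edgeR adjusted p of 0.162 and a DESeq2 adjusted p of 0.0173. With the chromosome 11 median removed it was -0.17. Acaca, the acetyl-CoA carboxylase that supplies malonyl-CoA to Fasn, had 120.1 and 85.5 CPM in KO, against 130.4 and 156 CPM in WT. Its samples did not overlap, with a log2 fold change of -0.48 (SE 0.20, edgeR adjusted p = 0.353), and -0.0072 with the chromosome 11 median removed. It was -0.26 with KO B left out and -0.74 with KO A left out.

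Scd1 and Scd2 encode stearoyl-CoA desaturases, which make monounsaturated fatty acids, and both lie on chromosome 19, outside the shifted chromosomes. Scd1 had 150.4 and 115 CPM in KO, against 172 and 186 CPM in WT. Neither KO value reached the WT range, and the log2 fold change was -0.44 (SE 0.17, edgeR adjusted p = 0.310), or -0.25 with KO B left out. Scd2 had 646 and 562 CPM in KO, against 629 and 753 CPM in WT. Its groups overlapped, with a log2 fold change of -0.19 (SE 0.15, edgeR adjusted p = 0.640) that was -0.05 with WT B left out and -0.32 with WT A left out. In bulk RNA, fewer cells of a type that makes these transcripts and less RNA per cell cannot be told apart.

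Over the 17 enzymes of the mevalonate and sterol branches, which build cholesterol itself, the median log2 fold change was -0.11, and -0.16 with chromosome medians removed. The KO samples lay below the WT samples without overlap for 7 of the 17, or 41.2% where 22.4% of all genes did so, and above them for 3, or 17.6% where 23.2% did. At an unadjusted edgeR p under 0.05, 1 was lower, or 5.88% where 7.86% of all genes were lower, and 0 were higher. Their summed level was 1117 and 1031 CPM in KO, against 1190 and 1181 CPM in WT.

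In the mevalonate branch, Acat2, the cytosolic thiolase that joins acetyl-CoA units, had 109 and 105 CPM in KO, against 116 and 147 CPM in WT. Fdps, which makes farnesyl diphosphate, had 151 and 144.5 CPM in KO, against 188 and 158 CPM in WT. Neither gene's groups overlapped, and both WT ranges were wider than the KO ranges. The log2 fold changes were -0.30 (SE 0.16) for Acat2 and -0.23 (SE 0.14) for Fdps, with edgeR adjusted p-values of 0.462 and 0.534. Acat2 was -0.11 with WT B left out and -0.47 with WT A left out, and Fdps was -0.10 with WT A left out and -0.34 with WT B left out. The kinases Mvk and Pmvk and the isomerase Idi1 overlapped between genotypes, with log2 fold changes from -0.11 to -0.06. Mvd, the decarboxylase that makes isopentenyl diphosphate, had 44.5 and 40.8 CPM in KO, against 37.6 and 40.2 CPM in WT. That made Mvd the only member of the branch above 0, at 0.13 (SE 0.14, edgeR adjusted p = 0.753), and its sign turned to -0.12 with the chromosome 8 median removed.

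In the sterol branch, Dhcr7, the reductase that makes cholesterol from its immediate precursor, had 59.0 and 50.9 CPM in KO, against 75.6 and 71.4 CPM in WT. The KO values lay well under the WT range, at a log2 fold change of -0.42 (SE 0.14, edgeR adjusted p = 0.239). Cyp51, the lanosterol demethylase, had 104 and 90.9 CPM in KO, against 116 and 128 CPM in WT. Its groups did not overlap either, at -0.33 (SE 0.14, edgeR adjusted p = 0.344). Fdft1, squalene synthase and the most abundant gene of the branch, had 112 and 124 CPM in KO, against 132 and 111 CPM in WT. Its groups overlapped, at -0.05 (SE 0.15, edgeR adjusted p = 0.938).

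Lss, the lanosterol synthase, and Hsd17b7 and Nsdhl, which act in removing methyl groups from the sterol ring, were lower in both KO samples. Their log2 fold changes were -0.29, -0.22 and -0.10, and none had an unadjusted edgeR p under 0.05. Lss was -0.07 with KO B left out and -0.53 with KO A left out. Hsd17b7 was -0.06 with KO library 3 left out and -0.40 with KO library 4 left out. Sqle, the squalene epoxidase, the isomerase Ebp and the desaturase Sc5d overlapped, at -0.15, -0.13 and 0.03. Msmo1, the sterol methyl oxidase, had 118 and 108 CPM in KO, against 98.8 and 97.1 CPM in WT. The KO samples were higher, at 0.21 (SE 0.13, edgeR adjusted p = 0.508), a value that turned to -0.04 with the chromosome 8 median removed. Tm7sf2, a sterol reductase, was also higher in both KO samples, at 0.22 (SE 0.22, edgeR adjusted p = 0.738).

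**Figure D4:**
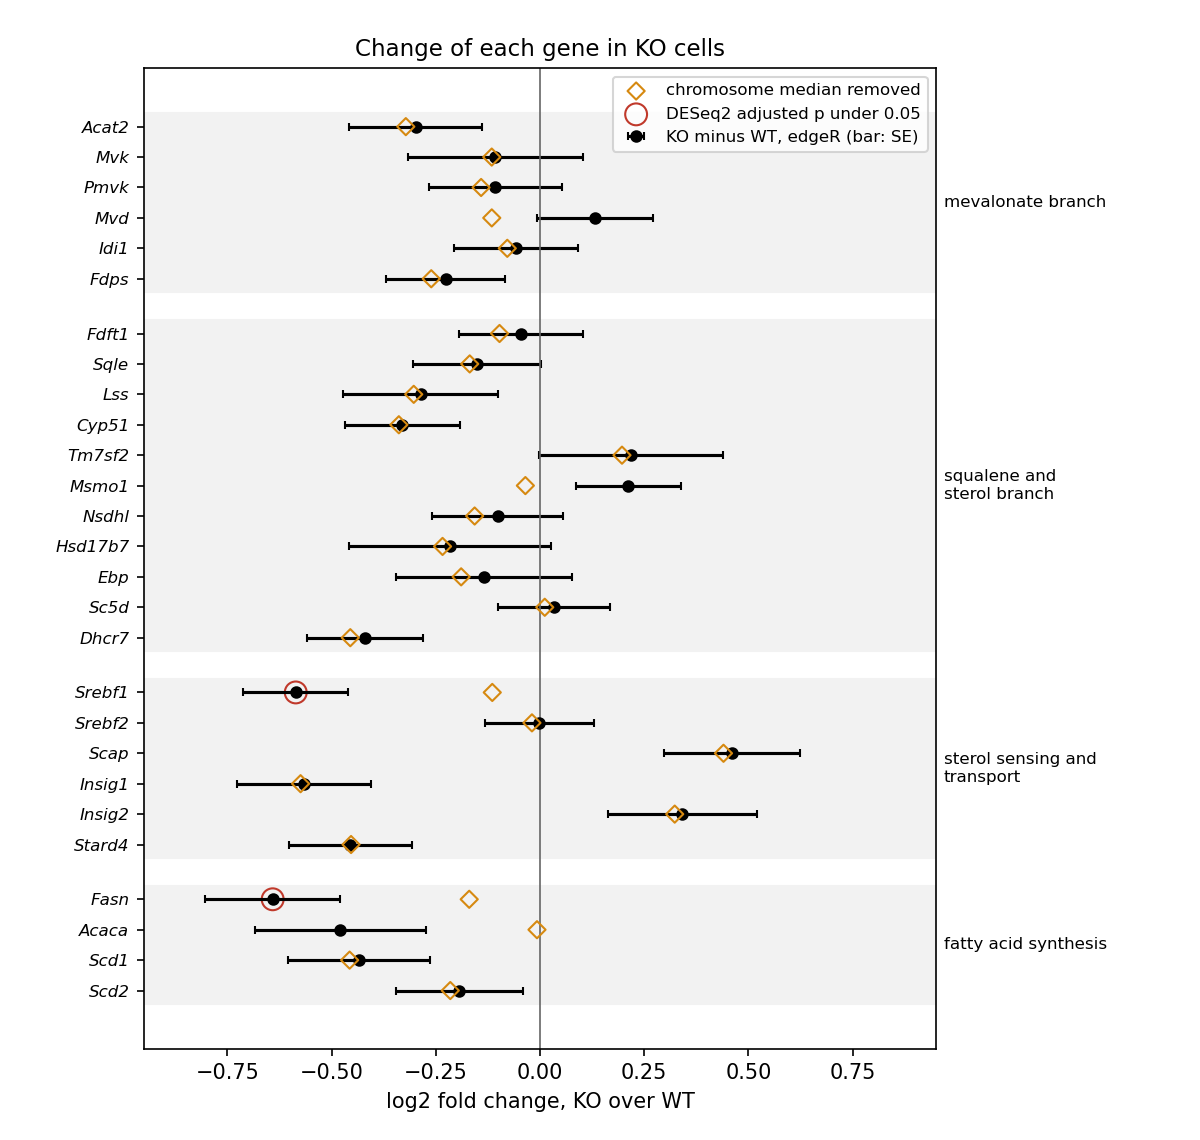
Log2 fold change of KO over WT for the 27 genes by role, with bars of 1 SE, and the value after the median of the gene's chromosome is removed (open diamonds). Fasn and Srebf1, ringed as called by DESeq2, move to -0.17 and -0.11 with their chromosome's median removed, while Insig1 stays at -0.57.

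Per transcript length, Fdps had the highest mean in both genotypes, at 127 ± 3.96 CPM per kilobase in KO and 148 ± 18.3 in WT (SD, n = 2 each). Scd2 followed, at 111 ± 10.96 CPM per kilobase in KO and 127 ± 16.1 in WT, so the gap to Fdps was little wider than the SDs. In WT B, Scd2 was above Fdps, at 138 against 135 CPM per kilobase. Hsd17b7 was the least abundant, at 3.89 ± 0.11 CPM per kilobase in KO and 4.52 ± 0.33 in WT. Fasn held 41.2 ± 7.46 CPM per kilobase in KO and 64.3 ± 1.78 in WT.

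Samples of the same genotype also differed in these genes. Between the WT samples, B minus A, their log2 differences ranged from -0.33 to 0.35, and between the KO samples from -0.49 to 0.34. The median absolute difference was 0.19 in KO and 0.12 in WT, against 0.17 in KO and 0.20 in WT over genes at levels between the lowest and the highest member. In KO 19 of the 27 genes were lower in B than in A, where 7750 of all 16785 genes were. In WT 11 of the 27 were, where 8432 of all 16785 genes were. The KO median of the 27 was -0.12 with TMM and -0.22 with library size scaling, and the WT median was 0.08 with both. In KO all 4 fatty acid genes were lower in B than in A, with a median of -0.38, while in WT their median was 0.19. These are differences between single samples, with no replicate and no test.

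**Figure D5:**
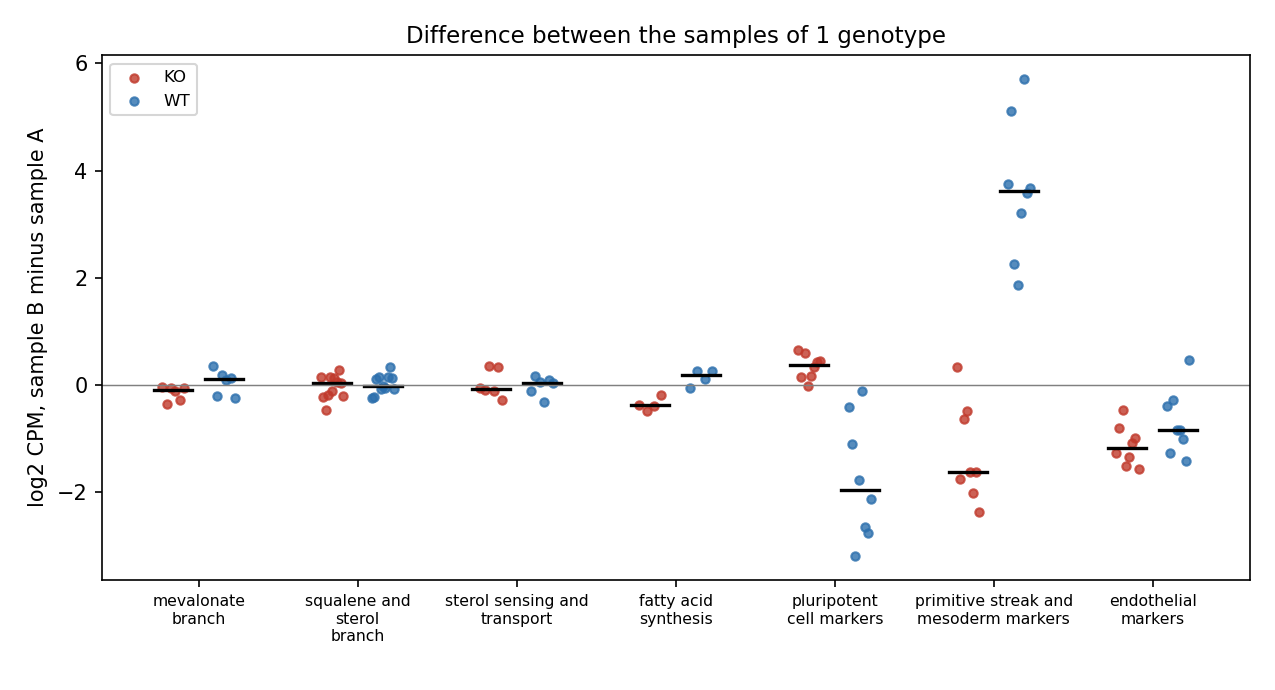
Log2 CPM of sample B minus sample A within KO (red) and WT (blue) for each gene, by role group and for 3 lists of cell type markers, with a bar at the median. The cholesterol and fatty acid genes lie within -0.49 and 0.35, whereas pluripotent cell markers have a WT median of -1.96 and primitive streak markers one of 3.63.

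Markers of the cell types that the sort could hold also differed between the samples. For scale, 22.4% of all genes were lower in both KO samples than in both WT samples, and 23.2% were higher. All 7 blood markers tested, of 8 listed, were lower in both KO samples, with summed levels of 5.78 to 8.04 CPM over the 8 in KO and 101 to 119.5 CPM in WT. Hbb-bh1, an embryonic globin, was at 0 reads in both KO samples. Smooth muscle and mesenchyme markers were higher in both KO samples for 6 of 8, with sums of 1741 to 3283 CPM in KO and 726 to 1009 CPM in WT. Endothelial markers were lower in both KO samples for 3 of 8, or 37.5%, and higher for 1, or 12.5%. Their sums were 308 to 744 CPM in KO and 1012 to 1197 CPM in WT. The 3 were Egfl7, Pecam1 on chromosome 11, and Kdr, the gene of the sorted marker. The sums include Kdr, which alone had 236 and 78.6 CPM in KO, against 440 and 605 CPM in WT. Pecam1 was at -2.03, and at -1.56 with the median of its chromosome removed. Pluripotent cell markers were lower in both KO samples for 2 of 8, with sums of 662 to 764 CPM in KO and 442 to 1330.0 CPM in WT. Visceral endoderm markers were lower in both KO samples for 3 of 8 tested, or 37.5%. Their sums over the 10 listed were 14.6 to 39.1 CPM in KO and 46.8 to 97.7 CPM in WT. Primitive streak markers overlapped for all 8, with sums of 25.9 to 58.0 CPM in KO and 19.6 to 236.5 CPM in WT. Of the 8 cell cycle markers 1 was lower in both KO samples, Top2a on chromosome 11, 4 were higher, and their median log2 fold change was 0.09. Their sums were 2388 to 2591 CPM in KO and 2768 to 2810.0 CPM in WT, and without Top2a they were 1777 to 1965 CPM in KO and 1730.0 to 1875 CPM in WT. The sums of the 27 lipid genes were 2787 to 3155 CPM in KO and 3493 to 3629 CPM in WT. Over the 22 of them outside chromosomes 8 and 11, the sums were 2127 to 2339 CPM in KO and 2466 to 2609 CPM in WT. No listed marker was at 0 in every sample, and the part of cell composition in the lipid gene differences was not tested.

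Genes around the pathway were read from 5 further lists, and none of their members passed the edgeR test. Of 27 tested genes of fatty acid supply, elongation and lipid assembly, 5 were lower and 0 higher at an unadjusted edgeR p under 0.05, or 18.5% and 0%, where 7.86% and 7.61% of all genes were. DESeq2 called 2 lower, or 7.41% where it called 3.53% of all genes, and the median log2 fold change was -0.20. Acly, which makes cytosolic acetyl-CoA from citrate, had 409.5 and 354 CPM in KO, against 649 and 679 CPM in WT. Both KO samples were lower, at -0.80 (SE 0.13, edgeR adjusted p = 0.105), and at -0.33 with the median of its chromosome, 11, removed. Fads1, a desaturase of polyunsaturated fatty acids, had 101 and 89.2 CPM in KO, against 138 and 140.3 CPM in WT. It too did not overlap, at -0.55 (SE 0.13, edgeR adjusted p = 0.145).

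The 13 genes of SREBP processing and turnover leaned the other way, with 0 lower and 4 higher at an unadjusted edgeR p under 0.05 and a median of 0.12. The 4 were 30.8% of the list, where 7.61% of all genes were higher, and DESeq2 called 2 of the 13 higher, where it called 3.37% of all genes. Mbtps1, the Golgi protease that makes the first cut in SREBPs, had 351 and 351 CPM in KO, against 259 and 259 CPM in WT. Both KO samples were higher, at 0.44 (SE 0.12, edgeR adjusted p = 0.174), and at 0.19 with the median of its chromosome, 8, removed. Pgrmc1, a haem-binding membrane protein that binds Insig1 and Scap, had 124 and 156 CPM in KO, against 86.4 and 97.7 CPM in WT. Its groups did not overlap, at 0.60 (SE 0.16, edgeR adjusted p = 0.177).

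Of 17 tested genes of cholesterol uptake, storage and efflux, 3 were lower and 1 higher at an unadjusted edgeR p under 0.05, or 17.6% and 5.88%, where 7.86% and 7.61% of all genes were. DESeq2 called 1 lower, or 5.88% where it called 3.53% of all genes, and the median was -0.0016. Mylip, the ligase that marks the LDL receptor for degradation, had 7.21 and 7.02 CPM in KO, against 13.1 and 14.9 CPM in WT. The groups did not overlap, at -0.98 (SE 0.20, edgeR adjusted p = 0.123). Stard3, a late endosomal sterol carrier on chromosome 11, had a log2 fold change of -0.50 (edgeR adjusted p = 0.207), which was -0.03 with the median of its chromosome removed.

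Of 19 genes of fatty acid oxidation, 1 was lower and 3 were higher at an unadjusted edgeR p under 0.05, or 5.26% and 15.8%, where 7.86% and 7.61% of all genes were. DESeq2 called 1 of the 19 higher, where it called 3.37% of all genes, and the median was 0.04. Cpt1b, a carnitine palmitoyltransferase that admits fatty acids to mitochondria, had 32.1 and 31.5 CPM in KO, against 19.2 and 19.9 CPM in WT. KO values exceeded WT values in every pairing, at 0.70 (SE 0.15, edgeR adjusted p = 0.123). Acadl, an acyl-CoA dehydrogenase, had 61.6 and 72.4 CPM in KO, against 47.7 and 49.4 CPM in WT, with a log2 fold change of 0.47 (edgeR adjusted p = 0.211). The 13 genes of the nonsterol isoprenoid branch, which turns the same diphosphates into prenyl groups, dolichol and ubiquinone, had 0 lower and 0 higher at an unadjusted edgeR p under 0.05 and a median of 0.03. The 2 with the smallest unadjusted p were the prenyltransferase subunits Fntb, at 0.25 (edgeR adjusted p = 0.522), and Pggt1b, at 0.30 (edgeR adjusted p = 0.554).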

How the data were processed

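The deposited table holds raw read counts per Ensembl gene for 8 RNA libraries, 4 per genotype, with a transcript length per gene, per the file headers. The submitters' processing notes name the build mm9 and DESeq. The aligner, counter, strand setting and annotation release were not given in the sources used here. No use was made of the ChIP-seq peak list. Symbols and chromosomes came from RefSeq tables of GRCm38.p6, used for promoter windows in that build and never for mm9 coordinates.

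Libraries were compared in pairs with a chi-square value for every gene, whose mean is 1 under sampling noise alone. Libraries 1 with 2 and 3 with 4 had means of 1.065 to 1.101 and were summed, and other pairs within a genotype had 12.764 to 28.465. Total counts per library were 11258493 to 13483294. After filterByExpr and TMM scaling, 16785 genes entered a robust quasi-likelihood fit of genotype in edgeR 4.0.16, and p-values were adjusted by Benjamini-Hochberg and judged at 0.05. The script was tested on simulated data with planted changes larger than that of any member. Whether the test detects changes as small as those of the members was not tested.

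Genes with values per sample were, in each role group, the 2 with the largest absolute fold change and the most abundant, and those with an unadjusted p under 0.05 or called by DESeq2. In the other lists they were the 2 with the smallest p. The choice of further names followed sight of the values. The members, lists and tests were chosen with earlier results of these data known, and the promoters and motifs after the fold changes were seen. A chromosome's median was taken over its genes averaging more than 3 in log2 CPM. Alternatives used DESeq2 1.42.0, limma 3.58.1, other scalings, filters and thresholds, a block, left-out libraries or samples, and removal of chromosome medians. R 4.3.3, Python 3.11.15, pandas 2.3.3 and scipy 1.17.1 were used.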

Additional observations from a re-analysis of the deposited data

How the results depend on the processing

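The count of genes past the edgeR test, 31, was 1159 by DESeq2, 3 by limma-voom, 151 with no filter, 5 with a filter of 1 CPM in 2 samples and 2 at an adjusted p of 0.01. It ranged from 0, with KO A or KO B left out, to 1674 with WT B left out (1537 without WT A). At an unadjusted edgeR p under 0.05, 750 genes were lower and 954 higher without KO A, and 642 lower and 464 higher without KO B. A lone sample is assumed to vary like the other group. Members past the test, 0, were 2 by DESeq2, 0 to 2 with a library or sample left out, and 12 with 8 libraries taken as separate replicates, which gave 3860 genes in all. Those libraries repeat the same samples.

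Replicate numbers recur in both genotypes, and whether samples of the same letter were paired is not in the labels. B minus A correlated at only -0.08 between KO and WT over genes. That value shows no large shared difference but cannot exclude a small one. A replicate block over 4 samples gave 5 genes and 0 members, with a member median of -0.15. A block over 8 libraries gave 3410 genes and 9 members.

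The member median ranged from -0.25, without KO A, to -0.12 with a library or sample left out. The Srebf1 over Srebf2 difference was -0.10 with chromosome medians removed and ranged from -0.73, without WT B, to -0.44 with a library or sample left out. Of 648 gene values under 24 alternatives, 18 changed sign, in 8 genes. Srebf2 was 0.0063 with no filter and 0.0001 with a replicate block, and with a library or sample left out it ranged from -0.0887 to 0.0882. Over the same omissions Mvk ranged from -0.2987 to 0.0652, Idi1 from -0.1984 to 0.0741, Fdft1 from -0.1633 to 0.0809, Ebp from -0.295 to 0.0436 and Sc5d from -0.0316 to 0.0967. With chromosome medians removed, Msmo1 was -0.0351 and Mvd -0.1157. Other values that a left-out library or sample moved by over 1.5 times, with no change of sign, were Mvd (0.074 at the lowest), Tm7sf2 (0.12), Nsdhl (-0.04 at the closest to 0), Pmvk (-0.01), Sqle (-0.04) and Pggt1b (0.12 to 0.49). The causes of these changes were not tested. Counting error weighs most on Hsd17b7, the least covered member, with at least 124 reads per sample.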
